A study of Mus musculus with 6 samples.

Results

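Purkinje cells are the output neurons of the cerebellar cortex. They are GABAergic, and their axons end on the neurons of the deep cerebellar nuclei, while their cell bodies lie in the overlying cortex. Transcripts that mark them can therefore speak to which tissue a dissection of the nuclei holds. The nuclei are a site of change in eyeblink conditioning, and the inhibitory input to them was not measured here. The genes described here are 7 such markers, namely Pcp2, Car8, Ppp1r17, Shisa6, Kitl, Itpr1 and Calb1. Every probe set was taken whose platform annotation names 1 of these genes and no other. This gave 13 probe sets of 6 genes, out of 29137 probe sets with a single symbol and 15970 genes. No probe set was assigned to Itpr1, the IP3 receptor through which Purkinje cells release stored calcium, so its level was not analysed here.

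Total RNA came from tissue centred on the anterior interpositus nucleus of male C57BL/6 mice, 11 to 18 weeks old, with 10 to 15 nuclei of the trained side pooled per training group. All mice carried eyelid wires and a headstage and received a tone of 352 ms and a shock near the eye of 100 ms for 7 days. Paired mice received the shock 252 ms into the tone, with a common end, and unpaired mice received the stimuli apart from each other, in pseudorandom order. Tissue was taken 10 to 30 min from sacrifice. Each pool was measured once on each of 3 array designs, A, B and C, which carry different probe sets. With 1 array per pool and design there was no replicate and no test across samples, and pooling hides the spread between mice.

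Pcp2, also known as L7, encodes a small regulator of G protein signalling and is the classical marker of the cell type, since its promoter is widely used to drive transgenes in Purkinje cells. The sequence just before its start is shown here, and whether this window drives expression in Purkinje cells was not tested. The 250 bases upstream of the most distal of its 4 RefSeq transcript starts (GRCm38.p6, chr8:3625548-3625797, minus strand, written along the gene) are given with the letters AGGTCA in capitals, the half-site read by the Purkinje cell factor RORA and by other nuclear receptors.
Pcp2 upstream region: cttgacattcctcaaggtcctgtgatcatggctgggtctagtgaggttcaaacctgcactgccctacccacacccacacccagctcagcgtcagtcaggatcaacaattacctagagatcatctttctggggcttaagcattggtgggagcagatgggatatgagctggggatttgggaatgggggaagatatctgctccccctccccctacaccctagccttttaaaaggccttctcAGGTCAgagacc
The capitals lie 12 to 7 bases before the start. Searched on both strands, AGGTCA occurred in 14.0% of 32851 RefSeq promoter windows of the same length, and TATAAA, which has no match in the Pcp2 window, in 12.4%. These matches describe the letters only.

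Pcp2 was nearly equal in the pools. Its probe set 102376_r_at on design A gave a log2 signal of 9.30 for the unpaired pool and 9.38 for the paired pool. The other, 162452_at on the same design, gave 6.32 and 6.23. After the paired array was scaled to the unpaired one by its median, the log2 ratios, paired over unpaired, were 0.09 and -0.08, with a mean of 0.01 ± 0.12 (SD over 2 probe sets). This SD is probe error and not error between pools. For reference, log2 ratios of probe sets of the same gene had a pooled SD of 0.20 over all genes, and the Pcp2 differences were smaller than that.

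Car8, Ppp1r17 and Shisa6 were higher in the paired pool on every probe set. Car8 encodes a carbonic anhydrase-related protein that lacks enzyme activity, binds the IP3 receptor and lowers its affinity for IP3. Its probe set 102773_at on design A gave 5.68 (unpaired) and 5.91 (paired) as log2 signals, which is a log2 ratio of 0.24. On design C, 166848_at gave 4.64 and 5.24, which is a log2 ratio of 0.61 or 1.52-fold. Both probe sets were higher in the paired pool, with a mean log2 ratio of 0.42 ± 0.26 (SD over 2 probe sets). On design C, 10 of the 5934 probe sets whose mean signal reached the design median had a larger log2 ratio than Car8.

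Ppp1r17, or G-substrate, is a target of cGMP-dependent protein kinase that inhibits protein phosphatases once phosphorylated. On design A, 98292_at gave a log2 signal of 4.68 unpaired and 5.07 paired, and 98293_g_at, made from the same transcript record, gave 4.26 and 4.71. On design C, 165877_at gave 4.35 and 4.76. The log2 ratios were 0.41, 0.46 and 0.42 in that order, so 3 probe sets on 2 designs gave nearly the same difference. The 98292_at probe set was under the design's median of 4.79 in the unpaired pool and passed the filter on mean signal through its paired value. The 98293_g_at probe set had a mean signal under its design's median and was left out of the gene's mean, 0.41 ± 0.01 (SD over 2 probe sets) or 1.33-fold.

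Shisa6 encodes a membrane protein that binds AMPA-type glutamate receptors and slows their desensitization. On design C, 137132_f_at gave a log2 signal of 3.70 unpaired and 4.17 paired, so that its log2 ratio was 0.48 or 1.39-fold. On design B, 110135_at gave 4.17 and 4.46, with a log2 ratio of 0.29 and a mean signal under the design's median. The letter f in the first name marks a probe set whose probes can match a family of similar sequences.

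Calb1 encodes calbindin, the calcium buffer that fills Purkinje cells down to their terminals in the nuclei. On design A, 98133_at gave log2 signals of 5.62 (unpaired) and 5.70 (paired) and so a log2 ratio of 0.09. On design B, 116207_at gave 3.52 and 3.79 and a log2 ratio of 0.28. The third, 163067_at on design B, had 2.73 and 2.98, and both values lay under the design's 25th percentile of 3.15, where no ratio was taken. The Calb1 difference on design A was smaller than the spread between probe sets of 1 gene, and both design B probe sets were dim.

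Kitl, the ligand of the receptor tyrosine kinase Kit, is made by Purkinje cells, while Kit is carried by the interneurons around them. By gene, it was the 1 member under 0. Its probe set, 99577_at on design A, gave a log2 signal of 5.46 unpaired against 4.86 paired, and its log2 ratio was -0.59, or 1.51-fold lower in the paired pool. On design A, 19 of the 6211 probe sets that reached the design median had a lower log2 ratio. Kit had a log2 ratio of -0.15 on its 1 probe set.

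**Figure D1:**
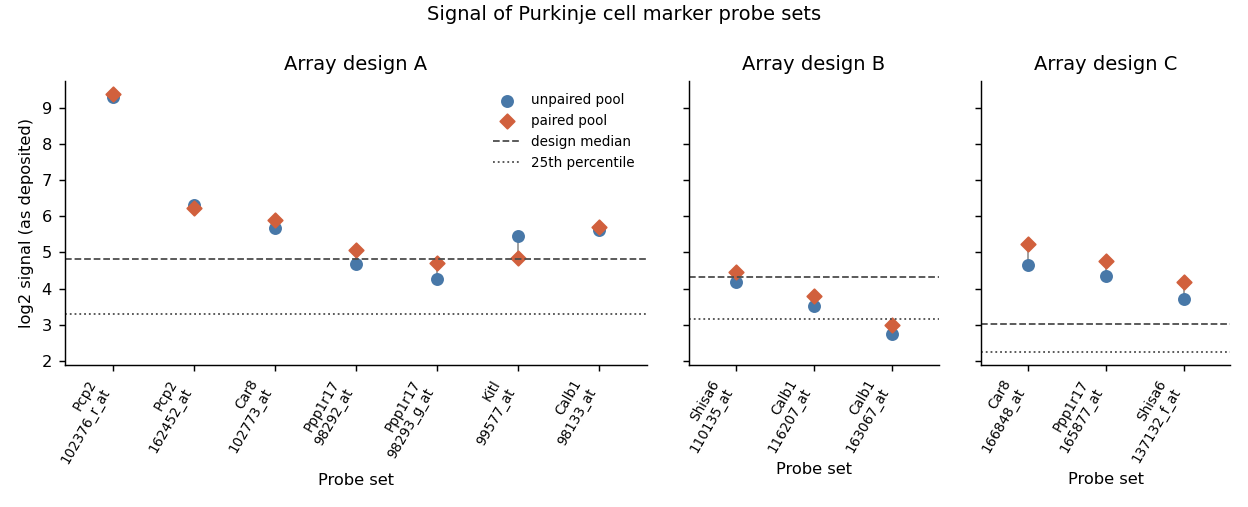
Deposited log2 signal of the 13 marker probe sets in the unpaired pool (circles) and the paired pool (diamonds), 1 array each, by array design; dashed and dotted lines mark the median and the 25th percentile of the design. The paired value is the higher in 11 probe sets and the lower in 2, namely 162452_at of Pcp2 and 99577_at of Kitl.

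Counted as deposited, 11 of the 13 probe sets were higher in the paired pool and 2 lower, against 50.6% higher among all probe sets. Of the 9 with a mean signal at or above the median of their design, 7 had a log2 ratio above 0 after scaling. At 1.5-fold, 1 of these 9 was higher (Car8 on design C), where 0.349% of all such probe sets were, and 1 was lower (Kitl), where 0.332% were. Both lay close to that limit, at 1.52-fold and 1.51-fold. By gene, 5 members were above 0 and 1 under it, with a median log2 ratio of 0.25, which was 0.09 on design A alone or without suffixed probe sets and 0.48 on design C alone. Among all 10581 genes measured, 49.0% were above 0 and 51.0% under it, and the median was -0.0039. In pooled tissue, a difference in the number of Purkinje cells or terminals and a difference in RNA per cell cannot be told apart.

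The log2 ratio of each probe set was also set beside those of probe sets of like signal, within 0.5 log2 units on the same design. Their spread mixes differences between genes and pools with probe error. For Car8 on design C the central 95% of 1296 such log2 ratios ran from -0.45 to 0.37, and its own 0.61 lay above. Ppp1r17 and Shisa6 on design C also lay above their ranges, which ended at 0.36 and 0.37. Kitl lay under its range of -0.40 to 0.43. The other 8 probe sets with a measured ratio lay inside, with 98293_g_at of Ppp1r17 at 0.46 close to its upper end of 0.46. Of all probe sets, 2.01% lay above and 2.03% under such a range, shares that follow largely from how the ranges were built. All 3 probe sets that lay above were those on design C, and no probe set on designs A or B did so.

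**Figure D2:**
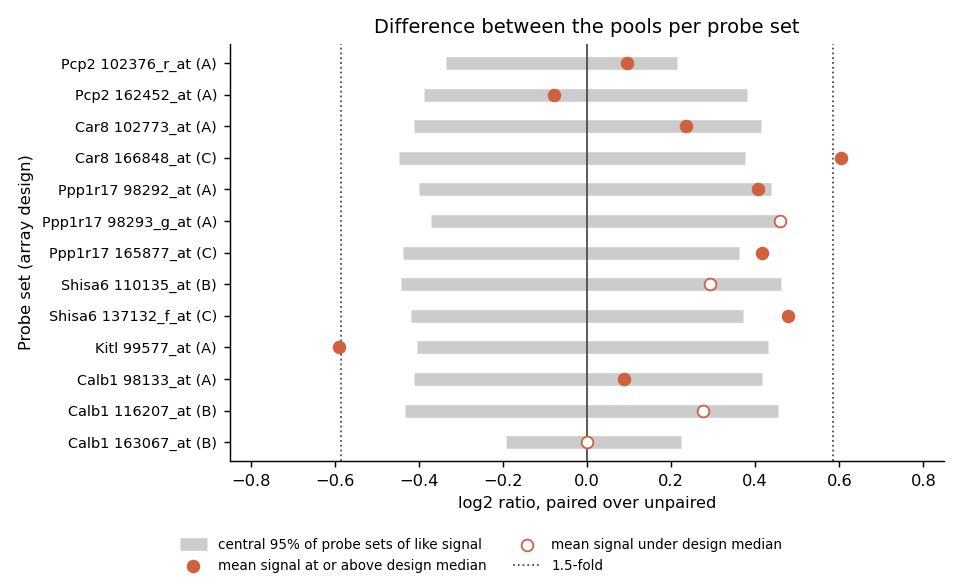
Log2 ratio, paired over unpaired, of each marker probe set (points; open where the mean signal is under the design's median) over the central 95% of probe sets of like signal on the same design (grey bars); dotted lines mark 1.5-fold. The point of 163067_at of Calb1 is at 0 because both its signals were raised to the 25th percentile; the 3 probe sets on design C lie to the right of their bars and Kitl lies to the left, at -0.59.

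How far different probe sets of a member gave the same difference was compared next. With probe sets of any signal, Car8, Ppp1r17 and Shisa6, 3 of the 5 members with several probe sets, had log2 ratios above 0.2 throughout, against 0.759% of 7645 genes. The limit of 0.2 was set after the values were seen, so the comparison with 0.759% is not a test. Low signals were also raised to a floor, and a probe set under it in both pools had a log2 ratio of 0. A gene with such a probe set could not pass, which lowers the share among all genes. Of the 13 member probe sets, 1 was of this kind, 163067_at of Calb1. Whether the arrays of a pool carried the same RNA is not stated in the labels, so these designs are not replicates of the pool.

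By rank of signal within the design, the 13 probe sets ran from the 14.6th percentile (163067_at of Calb1) to the 97.5th (102376_r_at of Pcp2) in the unpaired pool. Their median percentile was 62.4 unpaired and 64.0 paired. Car8 lay at the 63.9th percentile on design A and the 75.4th on design C, and Ppp1r17 at the 47.9th and the 41.6th on design A and the 71.6th on design C. A rank depends on how well the probes bind as well as on the transcript, so genes are not ordered by it. Genes of other organs, such as liver, pancreas, muscle, testis and skin, served as a reference for signal in the absence of the transcript. Their 35 probe sets had a median percentile of 25.9, and 31.4% of them lay at or above the design median. The highest were Cela1, a pancreatic elastase gene, at the 87.6th percentile and Prm1, a sperm protamine gene, at the 84.6th. Of 12 forebrain genes, 6 were measured, with a median percentile of 21.6. Single probe sets were higher, with Emx1 at the 84.3rd percentile and Drd2 at the 54.0th. Against this, 69.2% of the members' probe sets lay at or above the median, where 50% of all probe sets lie by definition. The share was 51.3% for other Purkinje cell markers, 64.7% for granule cell genes and 75% for genes of nuclear neurons. Among the members, 102376_r_at of Pcp2 was the 1 probe set above every reference probe set. Its letter r marks a probe set for which the array maker relaxed its rules of probe choice, and the other Pcp2 probe set, without a letter, lay at the 73.8th percentile.

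**Figure D3:**
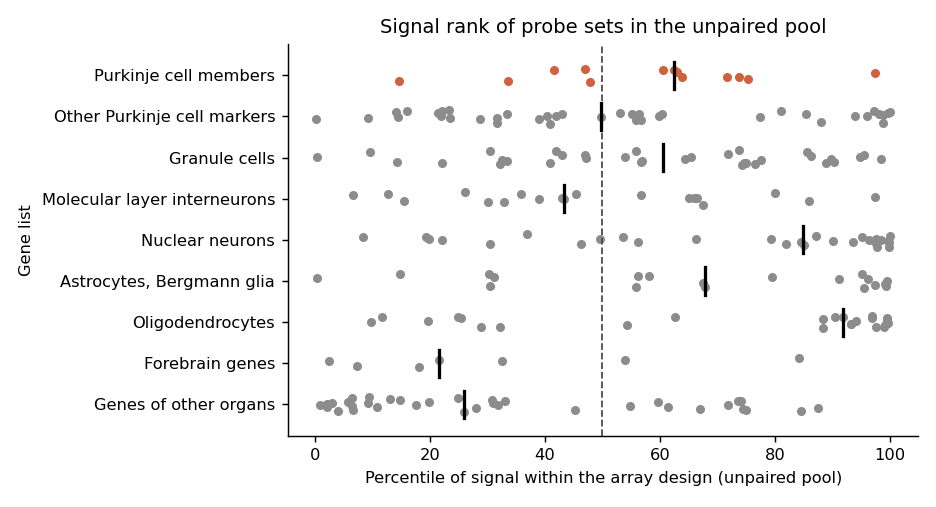
Percentile of signal within the array design, unpaired pool, for each probe set (points) of the Purkinje cell members and of other gene lists, with the median of each list as a bar; the dashed line marks the design median. The members have a median of 62.4, other Purkinje cell markers one of 49.8, and genes of other organs one of 25.9 with single probe sets up to 87.6.

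The list of other Purkinje cell markers has 25 genes, of which 13 passed the signal filter, 7 higher and 6 lower in the paired pool, with a median log2 ratio of 0.08. Cacna1a, the pore subunit of the P/Q-type calcium channel, had a log2 ratio of 0.38 and the homeobox gene Lhx1 0.28. The Lhx1 probe set was just under the design A median in the unpaired pool, at 4.78, and passed the filter through its paired value of 5.05. Dner, a transmembrane ligand of Notch, had -0.19 and the glutamate transporter gene Slc1a6 -0.15. The median was 0.12 on design A alone, where the members had 0.09, and -0.14 over 3 genes on design B alone. None of the probe sets of this list was past 1.5-fold in either direction.

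Genes of IP3 and stored calcium signalling, the pathway of Itpr1 and Car8, had a median close to 0. Of 16 measured genes 4 were above 0 and 12 under it, with a median of -0.03. It was 0.0008 with the brightest probe set per gene. The lowest gene was at -0.17, a difference smaller than the pooled SD of 0.20 between probe sets of the same gene. Plcb4, the phospholipase C that acts after the metabotropic glutamate receptor in many Purkinje cells, had a log2 ratio of 0.24. Ahcyl1, whose product competes with IP3 at its receptor, had 0.11 ± 0.15 (SD over 2 probe sets). The ryanodine receptor gene Ryr2 had -0.17 and the calcium pump gene Atp2a3 -0.15 ± 0.04 (SD over 2 probe sets). In the paired pool, the Ryr2 probe set was just under the design A median of 4.83, at 4.78. It passed the filter through its unpaired value of 4.96.

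Genes whose products bind or resemble those of the members had a median of -0.02, with 7 of 18 above 0. Gria1, an AMPA receptor subunit, had a log2 ratio of 0.32 ± 0.07 (SD over 2 probe sets). That mean leaves out a further Gria1 probe set on design A, whose mean signal was under the design's median. It gave log2 signals of 4.72 unpaired and 4.48 paired and a log2 ratio of -0.24, so the Gria1 probe sets differed in direction. Calb2, which encodes the related buffer calretinin and also marks granule cells, had 0.27. Car10, another carbonic anhydrase-related gene, had -0.22 ± 0.11 (SD over 2 probe sets), and the G protein gene Gnai2 had -0.17 ± 0.19 (SD over 3 probe sets).

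Markers of the cells next to Purkinje cells were in part on the same side of 0 as Car8, Ppp1r17 and Shisa6. Granule cell genes were above 0 in 10 of 13 measured, with a median of 0.12. Gabra6, a GABA receptor subunit of granule cells, had a mean log2 ratio of 0.89 ± 0.22 (SD over 2 probe sets). The cadherin gene Fat2 had 0.47, against -0.52 for the potassium channel gene Kcnd2 and -0.16 for Zic4. The Gabra6 probe sets gave 0.73 and 1.04. The latter was under the design A median of 4.79 in the unpaired pool, at 4.63, and passed the filter through its paired value of 5.66. The Kcnd2 probe set was under the design A median of 4.83 in the paired pool, at 4.70. It passed through its unpaired value of 5.23. The probe sets of this list had a median signal percentile of 60.6 unpaired and 64.5 paired. The part of cortical tissue in the Purkinje cell values was not tested. Molecular layer interneuron genes were above 0 in 2 of 4, with Prkcd at 0.52 ± 0.38 (SD over 3 probe sets), Nxph1 at 0.19, Ptprk at -0.03 and Kit at -0.15.

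Genes of nuclear neurons were above 0 in 3 of 9, with a median of -0.03 that was 0.00084 over 4 genes on design C alone. Slc17a6, a vesicular glutamate transporter, had 0.25 ± 0.52 (SD over 3 probe sets) and the vesicle gene Vamp1 0.24 ± 0.23 (SD over 3 probe sets), against -0.33 for Irx3 and -0.24 for the neurofilament gene Nefh. Their probe sets had a median percentile of 84.8 in the unpaired pool. Oligodendrocyte genes were above 0 in 2 of 8, with a median of -0.08. The lowest were Sox10 at -0.27 ± 0.26 (SD over 3 probe sets) and Cldn11 at -0.22. The highest were Mal at 0.01 and Mag at 0.05 ± 0.01 (SD over 2 probe sets). Astrocyte and Bergmann glia genes were above 0 in 3 of 8, with a median of -0.18. The median was 0.29 over 3 genes on design B alone. S100b at -0.33 and Timp4 at -0.32 were the lowest. The glutamate transporter gene Slc1a3 had 0.29 ± 0.08 (SD over 2 probe sets). The water channel gene Aqp4 had 0.30 ± 0.19 (SD over 3 probe sets). Genes of other organs, which the tissue should lack, had a median of 0.09 over 10 genes that passed the filter, with Lor at 0.43, Ins2 at 0.22, Ckm at -0.12 and Krt10 at -0.37, and the forebrain genes Drd2 and Emx1 had -0.14 and -0.09.

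**Figure D4:**
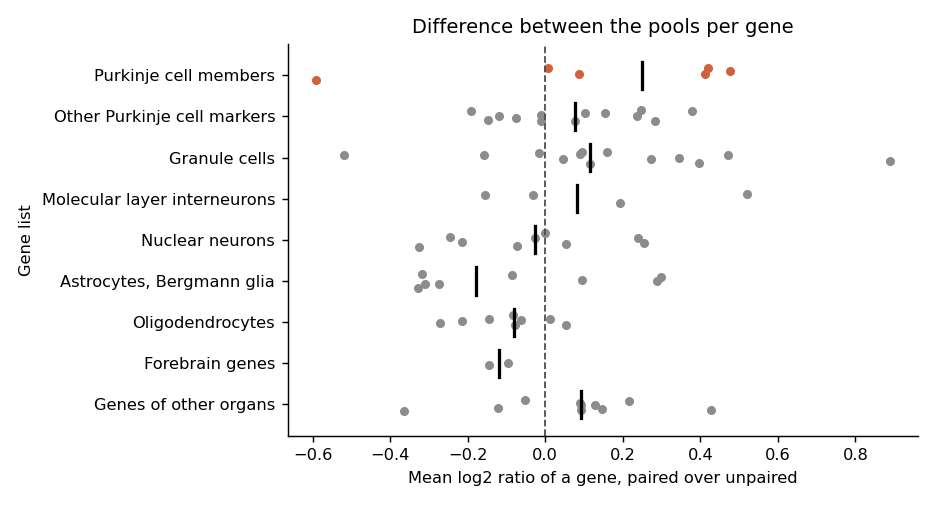
Mean log2 ratio, paired over unpaired, of each gene (points) above the signal filter, by gene list, with the median of each list as a bar; the dashed line marks no difference. Car8, Ppp1r17 and Shisa6 lie between 0.41 and 0.48 and Kitl at -0.59, beside granule cell genes with a median of 0.12 and genes of other organs that reach 0.43.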

How the data were processed

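Total RNA of, as far as the labels tell, 1 pool per training group was labelled with biotin and read on 3 array designs, 6 arrays in all. The authors deposited a log2 signal for each probe set. That the scale is log2 was inferred from the values, which run from 1.40 to 12.53 without controls. Summarization is not given in the sources used here, and neither is normalization. The letters A, B and C were read as array designs because the 3 tables hold different probe sets.

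After 198 control probe sets were set aside, 36701 remained, 29137 with a single gene symbol, 718 with several, which named no gene here, and 6846 with none. Symbols were updated by gene identifier through the RefSeq table of GRCm38.p6, which matched 29050 of them. Probe sequences were not checked. On every design, the paired array was moved by the median log2 ratio of the brighter probe sets (by 0.010 on A, 0.008 on B and 0.007 on C), values below the 25th percentile were raised to it, and the 18351 probe sets with a mean signal at or above the design median were used for ratios of genes. Signals printed are as deposited. A gene's value is the mean over its probe sets. Precision is limited by the number of arrays. Of each other list, the pair of genes with the highest and the pair with the lowest mean log2 ratio was named; Cela1 and Prm1, the brightest reference genes, were named after their values were seen. Members and lists were chosen with earlier results of these data known. Steps were tested on simulated data (Python 3.11.15, pandas 2.3.3).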

Additional observations from a re-analysis of the deposited data

How the results depend on the processing

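No paired analysis was possible because each training group had 1 array per design, and for the same reason no replicate could be left out. The scaling was left out or replaced by quantile or loess scaling (span 0.3). The floor and the filter on signal were dropped, or the filter was raised to the 75th percentile. Suffixed probe sets were left out, each design was used alone, and a gene was read from its brightest probe set. Over those that gave a value, the log2 ratio ranged from 0.24 to 0.61 for Car8, 0.39 to 0.43 for Ppp1r17, 0.38 to 0.48 for Shisa6, 0.07 to 0.12 for Calb1 and -0.63 to -0.59 for Kitl. Pcp2 ranged from -0.08 (without its suffixed probe set) to 0.09 and was -0.0024 with no scaling. The members' median was 0.48 on design C alone. The count past 1.5-fold was 0 higher on design A alone, and 0 lower on design C alone and at or above the 75th percentile, which leaves Kitl out. On design B alone, 0 of 3 member probe sets had a mean signal at or above the median, so no ratio was counted, and on design C alone 3 of 3 had. Other Purkinje cell markers had a median of -0.14 and glial markers of 0.29 on design B alone, and granule cell markers of 0.33 at or above the 75th percentile. List medians turned sign in 8 of 93 comparisons. With 1 array per pool, no difference has a replicate check, and dim probe sets, such as those of Calb1 on design B, limit what can be read.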
